A study of Mus musculus with 10 samples.

Results

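Limb bud RNA from mouse embryos was hybridised to 10 Affymetrix arrays, 5 labelled wild type and 5 labelled mutant for Dicer, and each genotype carries the replicate numbers 1 to 5. Here the 6 arrays numbered 1 to 3 were set against the 4 arrays numbered 4 and 5, so the comparison uses all 10 arrays of the series. Each side holds as many wild type as mutant arrays: 3 and 3 against 2 and 2. The sides were chosen on these values, since the first principal component of an earlier look at the same arrays separated them. The size of the separation is therefore a description, and no test of it is given.

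The embryos came from mice that carried 1 floxed Dicer allele and the prxcre driver, crossed to mice homozygous for the floxed allele. Every embryo of such a cross has at least 1 floxed allele, in both genotypes and on both sides of the comparison. Cre in this driver is made under a regulatory element of Prrx1, which is active in limb bud mesenchyme, so cells of the limb ectoderm, blood and vessels mostly keep Dicer. The labels give no treatment, and the growth and dissection protocols are identical for all 10 arrays. Stage, the limb that was taken, the number of embryos per array, and whether heterozygous embryos are among those labelled wild type are absent from the labels used. The source labels call each array a group with its number, and do not say what the number stands for. Litter, stage and day of handling cannot be told apart from the number.

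The limb bud is a core of mesenchyme under a sheet of ectoderm, whose thickened rim, the apical ectodermal ridge, secretes fibroblast growth factors and keeps the mesenchyme below it growing. As the bud grows, mesenchyme condenses into cartilage, tendon and connective tissue, while muscle precursors migrate in from the somites and then fuse and make contractile proteins. Dicer cuts microRNA precursors into mature microRNAs. Genes that mark these tissues therefore report both the mix of cells in a bud and how far each has matured. In whole buds, fewer cells of a type and less RNA per cell cannot be told apart.

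On the first principal component of the 22519 brighter probe sets, which held 37.7% of the variance, the arrays numbered 1 to 3 scored from -16.3 to -13.5. The arrays numbered 4 and 5 scored 17.7 for wild type 4, 21.5 for mutant 4, 21.2 for mutant 5 and 27.2 for wild type 5. No array lay between -13.5 and 17.7. The second component held 22.1% and separated the genotypes on both sides, except that the array labelled wild type 2 scored -14.9, among the mutants, and the array labelled mutant 2 scored 20.6, among the wild types. Wild type 5 stood apart from all other arrays on the third component, at 27.3 against -14.7 to 8.08.

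**Figure D1:**
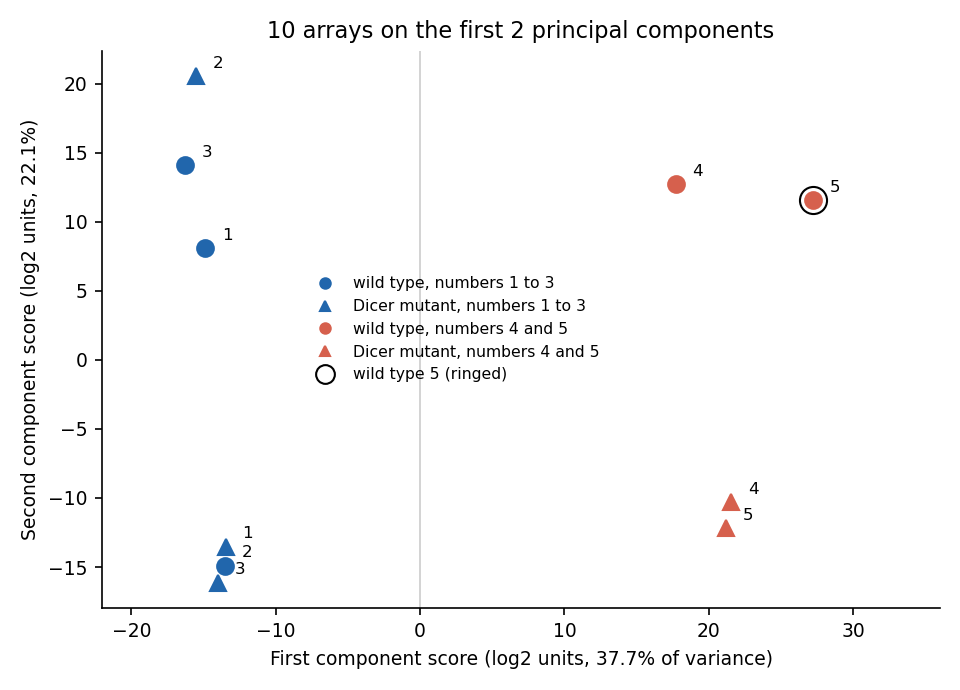
Scores of the 10 arrays on the first component (x axis) and second component (y axis), in log2 units, with the share of variance on each axis; circles are wild type, triangles Dicer mutant, and numbers are the replicate numbers. The 6 arrays numbered 1 to 3 lie at or below -13.5 and the 4 numbered 4 and 5 at or above 17.7, while the arrays numbered 2 sit at the other genotype's height.

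Some facts of the arrays bear on all that follows. Xist, the RNA of the inactive X chromosome in females, read 1545 to 2412 on all 6 arrays numbered 1, 3 and 5 and 65.8 to 73.1 on all 4 arrays numbered 2 and 4, while the Y-linked gene Eif2s3y read 9.02 to 14.6 and 389 to 615. Numbers 1 to 3 thus hold 4 arrays with high and 2 with low Xist, and numbers 4 and 5 hold 2 of each. The part of this mix in the differences was not tested. The median signals of the arrays ranged from 145.8 to 152.8. Dicer1, the targeted gene, went against the label on both arrays numbered 2: the brighter probe set read 551 on the library labelled wild type 2 and 774 on the library labelled mutant 2, against 707 to 940 on the other wild types and 506 to 555 on the other mutants. Since both arrays numbered 2 are on the same side, they do not unbalance the comparison of numbers. The 18S ribosomal RNA probe set nearest the 3' end read 2270 on wild type 5 and 317 to 450 on the other 9 arrays, so results are also given without wild type 5.

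The difference covered many genes and was small for most. Signals were compared on the log2 scale as the mean of numbers 4 and 5 minus the mean of numbers 1 to 3, and a probe set was counted where the 6 and 4 arrays did not overlap and the means differed at least 1.5-fold. Of 45037 probe sets, 243 were counted as higher in numbers 4 and 5, or 0.54%, and 437 as lower, or 0.97%. At 2-fold the counts were 15 higher and 35 lower. Without wild type 5 the 1.5-fold counts were 289 and 489.

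For each gene 1 probe set was then taken among those whose mean over the 10 arrays reached a signal of 151, the median of all: the brightest, with sets whose identifiers mark possible cross-hybridisation (_x_at and _s_at) taken when a gene has no other. This left 11601 genes. Of these, 832 stood apart with higher signals in numbers 4 and 5, or 7.17%, and 1568 with lower signals, or 13.5%. The median difference over all genes was -0.026. These shares were 9.81% and 17.9% without wild type 5, so each list below is read against the share for the same arrays. Adding the 1.5-fold limit left 43 higher and 232 lower genes. For 30 of the 127 counted genes with several probe sets a brighter _x_at or _s_at set was passed over. Of the counted genes, 2 of the 43 were below the filter signal in numbers 1 to 3 and 13 of the 232 in numbers 4 and 5. Such genes were measured through the side where they are high and had to differ. Without wild type 5, 28 of the 43 and 213 of the 232 were still counted. The rest fell under the 1.5-fold limit. By the rule, genes that stand apart with all arrays still do so, in the same direction, with 1 array fewer. The lower genes had a median signal of 511 and the higher ones of 448, both above the 353 of all genes.

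The 2 genotypes share no array, so the difference can be read in each. Genes apart and at least 1.5-fold different in wild type arrays alone numbered 81 higher and 313 lower. In mutant arrays 79 of the 81 (97.5%) and 309 of the 313 (98.7%) differed in the same direction, and 65 and 282 of them also stood apart there. By themselves, 20.8% of all genes stood apart as higher and 27.2% as lower in the mutant arrays, and by direction alone 46.1% were higher and 53.9% lower. Read the other way, 50 of 55 higher and 269 of 270 lower genes of the mutant arrays had the same direction in wild type. There 37 and 239 of them also stood apart. Of all genes, 42.8% were higher and 57.2% lower in the wild type arrays, and 15.8% and 26.2% stood apart. Across genes the difference in wild type and in mutant arrays correlated with r = 0.71, over genes that share the arrays and are no replicates. Both directions of reading use the side that was chosen on these arrays and are given as a description.

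**Figure D2:**
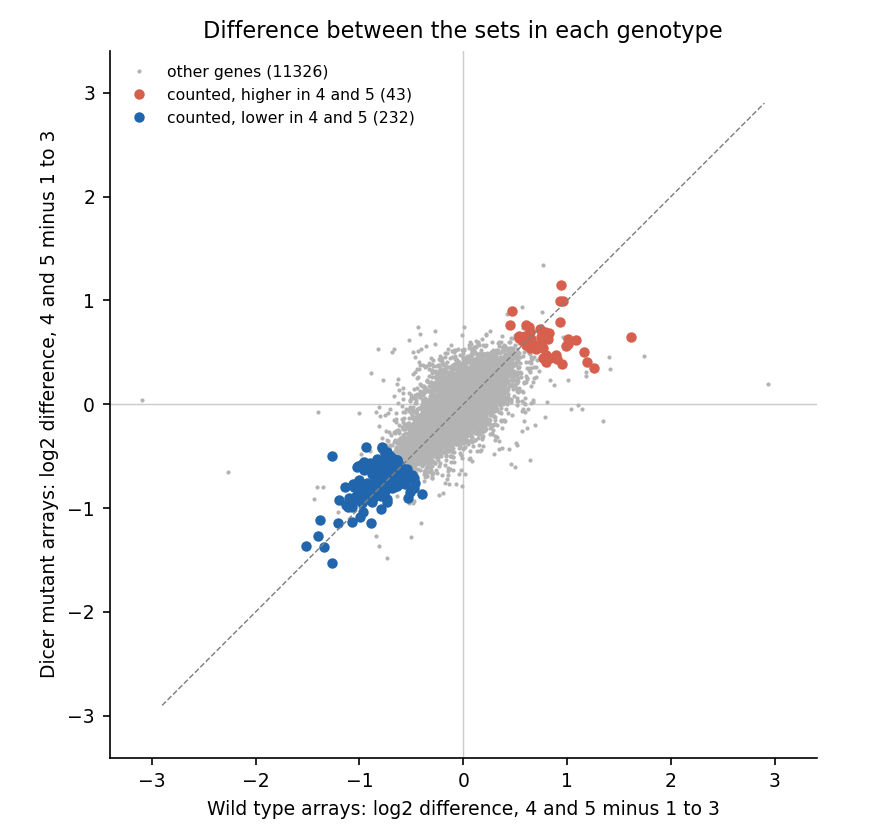
Each point is 1 of 11601 genes, with the log2 difference between numbers 4 and 5 and numbers 1 to 3 in wild type arrays (x axis) and in Dicer mutant arrays (y axis); the dashed line marks equal differences. The 43 genes counted as higher (red) lie in the upper right and the 232 counted as lower (blue) in the lower left. The counting rule requires this, because in these genes the arrays of the sides do not overlap in either genotype. The place of the coloured points is therefore no evidence that the genotypes agree.

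Zfp397, a zinc finger protein gene, had the most negative difference. Its signal was 296 to 377 (median 327) in numbers 1 to 3, and 120 and 106 in wild type 4 and 5 and 154 and 111 in mutant 4 and 5. All 4 later numbers thus lay far below the other 6, by 1.44 ± 0.10 on the log2 scale (standard error of the difference). Its signals in numbers 4 and 5 lie mostly under the filter signal of 151, as do those of Fam171a2 and Ttll1 below. Lbh, a transcriptional cofactor named for its expression in limb bud and heart, read 649 to 845 (median 767) in numbers 1 to 3, and 348, 287, 256 and 258 in wild type 4 and 5 and mutant 4 and 5, a 2.64-fold difference. Stk25, a serine/threonine kinase, read 399 to 781 (median 493) against 149, 273, 272 and 157. In Stk25 wild type 4 and mutant 5 formed a low pair and wild type 5 and mutant 4 a higher one, and both pairs lay below all arrays numbered 1 to 3.

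Further genes of this end had other roles. U2af2 is the large subunit of the factor that recognises the polypyrimidine tract before a 3' splice site. It read 2096 to 2429 in numbers 1 to 3 and 1073 to 1219 in numbers 4 and 5. Polr2a, the largest subunit of RNA polymerase II, read 902 to 1432 against 539 to 638. Srebf1, a transcription factor that turns on genes of fatty acid and sterol synthesis, read 482 to 653 against 249 to 308. Fam171a2 (-1.33), Ctxn1 (-1.24), Abhd17a (-1.18), Ttll1 (-1.10), Raver1 (-1.06), Ubl7 (-1.05), Tnnt1 (-1.05), Bcl7c (-1.03) and Scand1 (-1.02) completed the 15 genes with the most negative values, with log2 differences in parentheses. Abhd17a encodes a depalmitoylase, Ttll1 a tubulin-modifying enzyme and Bcl7c a subunit of the BAF chromatin remodeller. Without wild type 5 the 15 differences ranged from -1.50 to -0.86.

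Of the genes higher in numbers 4 and 5, 2 reached 2-fold. Gpank1, a G-patch and ankyrin repeat protein gene, read 1015, 1200, 1034 and 965 in wild type 4 and 5 and mutant 4 and 5. In numbers 1 to 3 it read 164 to 848 (median 551), with 1 array far below the others, so its difference of 1.13 carried a standard error of 0.33. Rpl27a, a protein of the large ribosomal subunit, read 168 to 269 (median 198) against 410, 423, 439 and 478, a difference of 1.05 ± 0.13. Its 1 probe set is dim beside that of Rpl6, another ribosomal protein gene, at 7966 to 9459. What this dim signal measures was not tested. Snx22, a sorting nexin, read 135 to 159, with a mean under the filter signal, against 258 to 313, and its standard error of 0.071 was the smallest among the 15 highest genes.

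The next genes divided by how much wild type 5 added. Kcnab2, a potassium channel subunit (0.87), Prelid3a, a lipid transfer protein of mitochondria (0.85), 4932431P20Rik (0.98), Psapl1 (0.76), Tmem252 (0.74) and Ccdc180 (0.73) had log2 differences of 0.76 to 1.02 without that array. Nampt, which makes nicotinamide mononucleotide in the salvage of NAD, read 1528 on wild type 5 and 616 to 753 on the other 3 arrays, so its difference of 0.82 was 0.54 without it. Gdap10 went from 0.83 to 0.44, Pdk1, the kinase that shuts off pyruvate dehydrogenase, from 0.81 to 0.40 with its sides touching at 526, and Kdm7a, a histone demethylase, from 0.80 to 0.39. Dkk1, a secreted inhibitor of Wnt signalling, read 221 to 308 in numbers 1 to 3 and 425, 621, 325 and 425 in wild type 4 and 5 and mutant 4 and 5, and kept a difference of 0.63 without wild type 5.

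**Figure D3:**
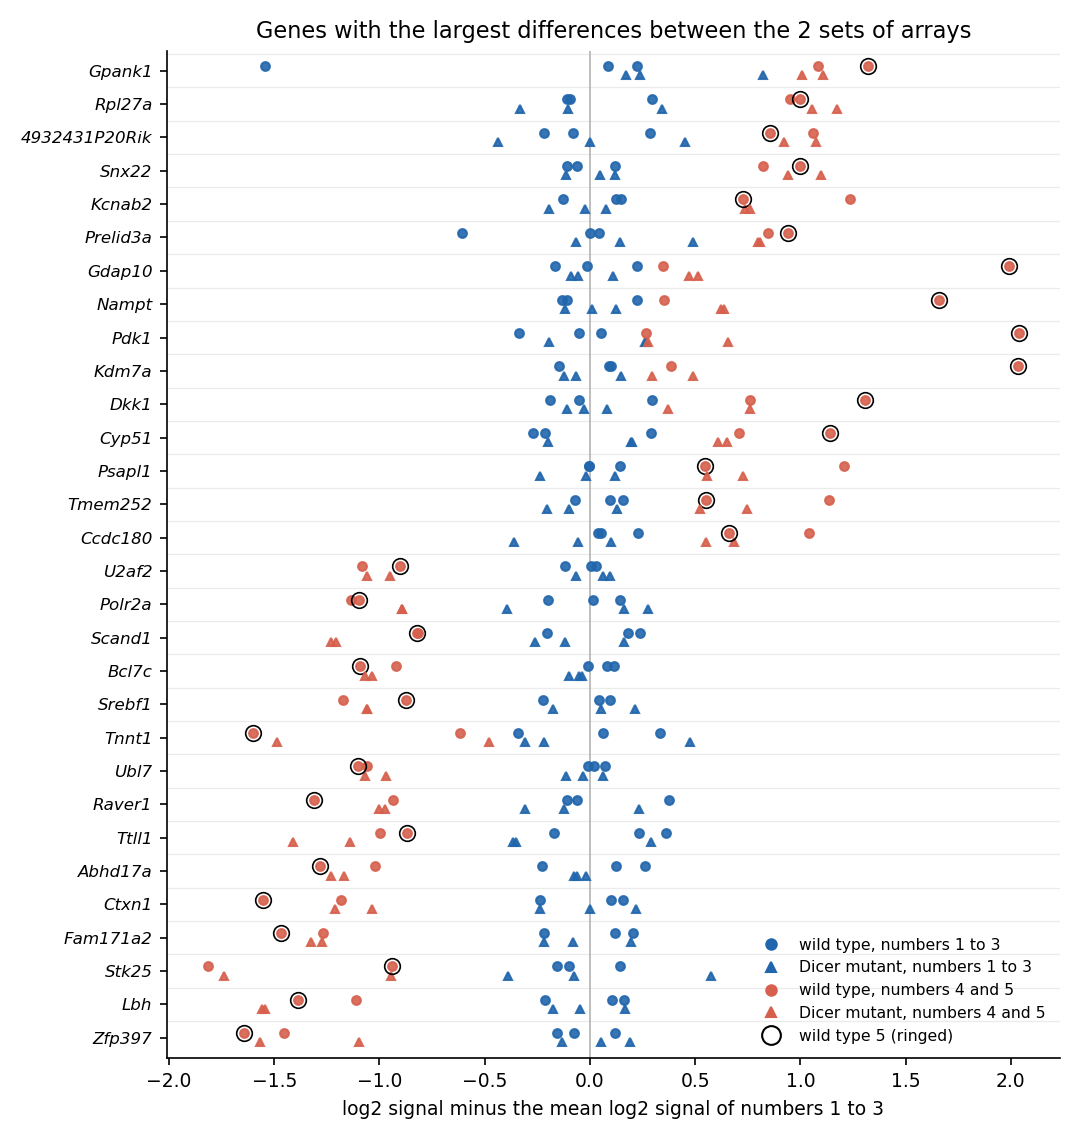
The 15 genes with the largest difference in each direction (y axis), each array plotted as its log2 signal minus the mean log2 signal of numbers 1 to 3 (x axis); circles are wild type, triangles Dicer mutant, blue numbers 1 to 3, red numbers 4 and 5, and wild type 5 is ringed. Red and blue points do not overlap in any row, and wild type 5 lies far to the right of the other red points in Gdap10, Nampt, Pdk1 and Kdm7a.

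A gene's probe sets did not always tell the same story. The 104 lower genes with further probe sets had 165 of them above the brightness filter. Of these, 75.8% differed in the same direction, 40.6% stood apart that way and 6 stood apart the other way. For the 23 higher genes the 40 further probe sets gave 72.5%, 32.5% and 0. The median difference of the further probe sets was -0.19 against -0.70 for the ones used in the lower genes, and 0.19 against 0.67 in the higher. The second probe set of Zfp397 differed by 0.14, that of Lbh by 0.09, that of Polr2a by -0.044 and that of Gpank1 by -0.24, so for these 4 genes the large difference belongs to 1 probe set. The further probe sets of Bcl7c (-0.024, -0.13 and 0.18), Prelid3a (0.25) and Ccdc180 (0.15) were also small in difference and overlapped between the sides. Those of Abhd17a were split, with -1.05 standing apart and -0.044 overlapping. In Cyp51, Calr and Hbb-bh1 every further probe set stood apart in the direction of the one used.

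Promoters were read from RefSeq, from 250 bases before to 50 bases after the annotated start, to set the 2 ends of the ranking side by side in sequence. Shown are the first 2 genes of each direction that have an entry in the table (GRCm38.p6), 5' to 3' on the strand of the gene, with every CpG dinucleotide in capitals. They lie at chr17:72918055-72918354 on the plus strand (Lbh), chr1:93635678-93635977 on the minus strand (Stk25), chr17:35122702-35123001 on the plus strand (Gpank1) and chr7:109518945-109519244 on the plus strand (Rpl27a).
Lbh: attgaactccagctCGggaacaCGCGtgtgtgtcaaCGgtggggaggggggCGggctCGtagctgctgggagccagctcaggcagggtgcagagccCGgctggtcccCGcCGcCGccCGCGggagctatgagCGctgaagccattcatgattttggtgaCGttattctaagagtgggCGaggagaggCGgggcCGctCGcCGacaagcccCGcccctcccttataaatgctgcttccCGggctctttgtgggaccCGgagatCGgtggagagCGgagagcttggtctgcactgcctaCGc
Stk25: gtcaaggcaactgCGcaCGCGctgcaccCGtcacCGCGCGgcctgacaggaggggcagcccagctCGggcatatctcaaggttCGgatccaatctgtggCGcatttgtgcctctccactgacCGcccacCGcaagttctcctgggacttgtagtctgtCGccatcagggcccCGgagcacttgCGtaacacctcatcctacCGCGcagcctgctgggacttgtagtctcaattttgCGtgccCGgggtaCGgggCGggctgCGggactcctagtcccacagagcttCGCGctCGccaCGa
Gpank1: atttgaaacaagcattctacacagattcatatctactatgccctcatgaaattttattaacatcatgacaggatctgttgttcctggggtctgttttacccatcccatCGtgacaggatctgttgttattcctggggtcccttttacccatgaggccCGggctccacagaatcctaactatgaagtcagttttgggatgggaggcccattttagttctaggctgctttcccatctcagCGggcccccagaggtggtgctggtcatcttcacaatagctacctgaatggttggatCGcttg
Rpl27a: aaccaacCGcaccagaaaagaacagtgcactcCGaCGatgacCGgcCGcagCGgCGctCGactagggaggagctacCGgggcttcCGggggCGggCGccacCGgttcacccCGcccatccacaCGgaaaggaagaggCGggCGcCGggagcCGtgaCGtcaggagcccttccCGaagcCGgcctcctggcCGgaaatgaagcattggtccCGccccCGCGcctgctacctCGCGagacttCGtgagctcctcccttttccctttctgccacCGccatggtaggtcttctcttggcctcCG
Lbh holds 25 CpG and 65% G or C, Stk25 26 and 64%, Rpl27a 31 and 67%, and Gpank1 4 and 47%. Over the groups there was no such contrast. The median was 22 CpG in the 186 promoters of lower genes, 21.5 in the 36 of higher genes and 21 in the 9397 of all genes that have an entry. The motif searched was CG, which reads the same on both strands.

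Connective tissue genes were lower in numbers 4 and 5. Of 25 measured genes of tendon and loose connective tissue, 24 had a negative difference and 8 stood apart as lower, against 13.5% of all genes, and none stood apart as higher. The median difference was -0.30. Col1a1, a chain of the main fibrillar collagen of tendon and bone, read 428 to 617 (median 516) in numbers 1 to 3, and 307, 297, 361 and 329 in wild type 4 and 5 and mutant 4 and 5. Its other probe set differed by -0.18 and overlapped between the sides. Fbln1, an elastic fibre protein, read 1493 to 2222 against 1071 to 1429, with further probe sets at -0.079 and 0.013. Scx, the transcription factor of tendon progenitors, read 414 to 479 against 297 to 366, and Sparc, a collagen-binding matrix protein, 1133 to 1688 against 749 to 1009. Fibronectin (Fn1, -0.35), Col5a1 (-0.43), Col6a3 (-0.51) and Fmod (-0.28) made up the rest of the 8. Without wild type 5, 11 of the 25 stood apart as lower, against 17.9% of all genes.

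Cartilage genes split. Col2a1, the collagen of cartilage, read 1425 to 1959 (median 1725) in numbers 1 to 3 and 879, 1011, 940 and 928 in wild type 4 and 5 and mutant 4 and 5, a 1.79-fold difference with tight values on the lower side. Hapln1, which links aggrecan to hyaluronan, went the other way, at 159 to 196 against 207 to 297. Sox9, the transcription factor that starts cartilage formation, overlapped between the sides at 661 to 836 and 577 to 862. Of 17 measured cartilage genes, 14 had a negative difference, 1 stood apart in each direction, against 7.17% higher and 13.5% lower of all genes, and the median was -0.13. Without wild type 5 the median was -0.25, with 1 higher and 2 lower, against 9.81% and 17.9% of all genes.

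Muscle genes had the lowest median of the lists with 3 or more measured genes, -0.44 over 21 genes, but most overlapped between the sides. The 5 that stood apart as lower were Tnnt1 (-1.05), Acta1 (-0.62), Myod1 (-0.39), Des (-0.20) and Cdh15 (-0.13), and Ckm, the creatine kinase of muscle, stood apart as higher (0.44). Of all genes 13.5% were lower and 7.17% higher. Actc1, the embryonic striated muscle actin, read 1562 on wild type 4 and 1976 on mutant 4, but 761 on wild type 5 and 762 on mutant 5, against 1753 to 3921 in numbers 1 to 3. Myog, which drives myoblast fusion, read 391 and 389 on the arrays numbered 4 and 186 and 217 on those numbered 5, against 362 to 675. Against numbers 1 to 3 the list's median was -0.23 for number 4 and -0.65 for number 5. The summed signal of the list ran from 7330 to 14631 in numbers 1 to 3 and from 4729 to 8584 in numbers 4 and 5, and no measured marker was at 0. The sums of the sides therefore overlapped.

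**Figure D4:**
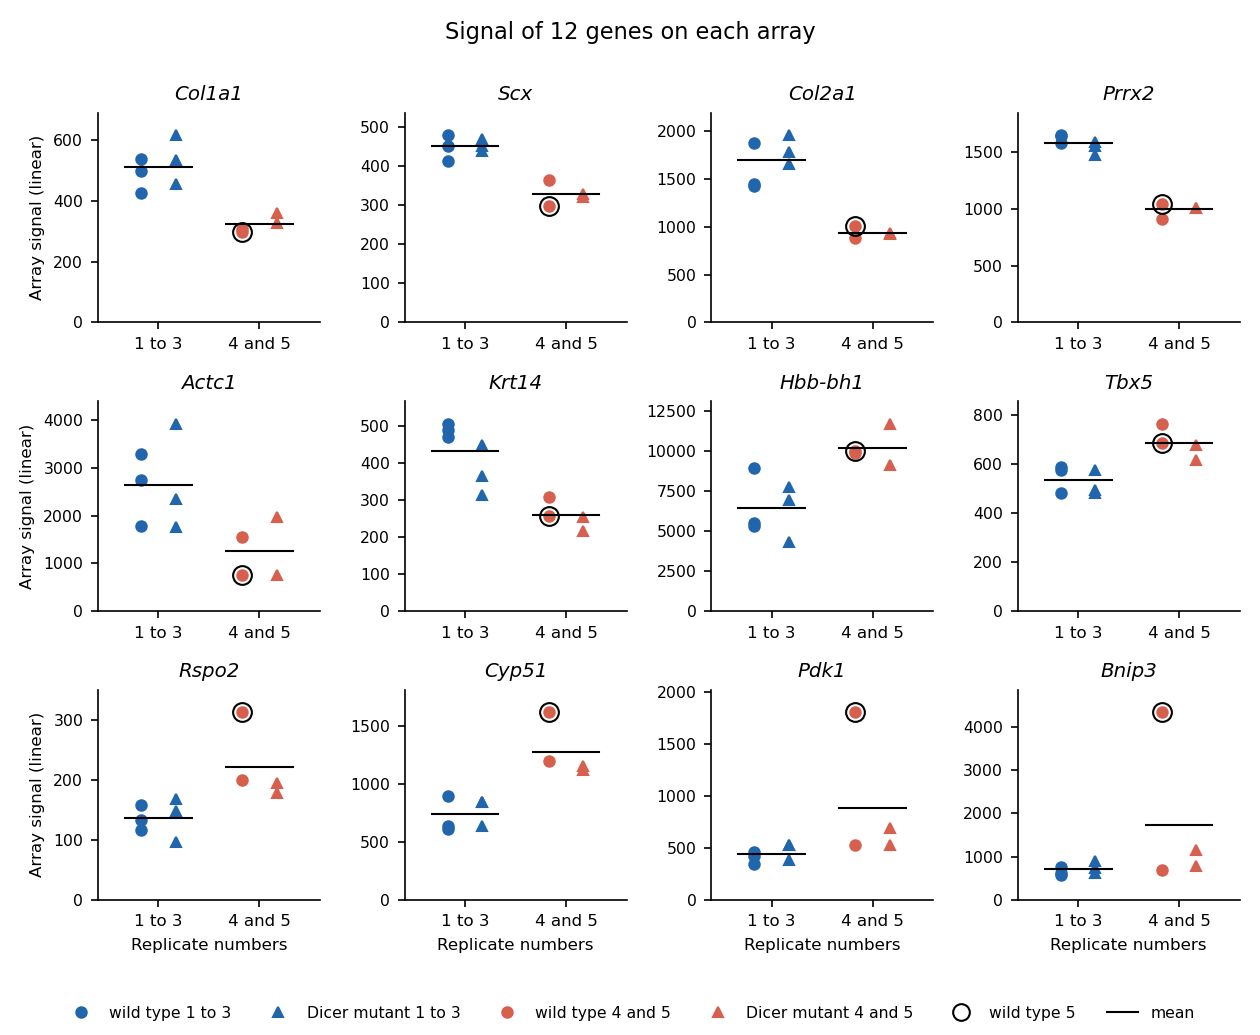
Linear array signal (y axis) of 12 genes in numbers 1 to 3 and in numbers 4 and 5 (x axis); circles are wild type, triangles Dicer mutant, the bar is the mean of the arrays of a side, and wild type 5 is ringed. Col1a1, Scx, Col2a1, Prrx2 and Krt14 are lower on all 4 arrays of the right side, Actc1 is low on both arrays numbered 5, and Pdk1 and Bnip3 are high on wild type 5.

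The defining genes of limb mesenchyme were bright on both sides. Prrx1, whose regulatory element drives the Cre, read 2294 to 2898 in numbers 1 to 3 and 2128 to 2661 in numbers 4 and 5. Its relative Prrx2 was lower, at 1477 to 1653 (median 1590) against 917, 1050, 1013 and 1010 in wild type 4 and 5 and mutant 4 and 5. Hand2, a transcription factor of the posterior limb bud, read 2045 to 2733 against 1735 to 1931. These were the 2 of 18 measured mesenchyme factors that stood apart as lower, against 13.5% of all genes, and none stood apart as higher. It was 6 of 18 without wild type 5, against 17.9%.

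Factors that distinguish regions of the limb gave mixed values. Tbx5, the forelimb factor, read 481 to 589 (median 538) in numbers 1 to 3 and 766, 689, 619 and 681 in wild type 4 and 5 and mutant 4 and 5. The hindlimb factor Tbx4 overlapped, at 192 to 320 and 137 to 220, and Pitx1 was near the brightness limit at 152 to 178 and 162 to 176. Isl1, also on the list of limb type genes, stood apart as higher (0.23), with a mean under the filter signal in numbers 1 to 3. So 2 of the 8 measured limb type genes were higher and 0 lower, against 7.17% and 13.5% of all genes. Of the 8 measured proximal factors, Meis1 stood apart as higher (0.51), as did Meis2 (0.35), while their partner Pbx2 stood apart as lower (-0.39). These 2 higher and 1 lower are read against the same shares of all genes. None of 13 measured HoxA and HoxD genes stood apart, against 7.17% and 13.5% of all genes. Their median was 0.058, but -0.029 in wild type arrays alone.

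In the ectoderm 4 keratin genes stood apart as lower, while Epcam and Cdh1 overlapped between the sides. Krt14 and Krt5 form the keratin filament of basal keratinocytes. Krt14 read 313 to 507 (median 460) in numbers 1 to 3 and 308, 259, 254 and 217 in wild type 4 and 5 and mutant 4 and 5, and a second probe set gave -0.54 with overlapping arrays. Krt5 read 720 to 985 against 534 to 580. Krt17 (-0.36, with a mean under the filter signal in numbers 4 and 5) and Krt7 (-0.33) also stood apart as lower, making 4 of 20 measured genes against 13.5% of all genes, and none stood apart as higher. Epcam, a surface protein of many epithelia, read 494 to 618 and 552 to 617, and Cdh1, E-cadherin, 458 to 626 and 564 to 657. The list's median was -0.055, with 8 positive and 12 negative differences. It was -0.096 without wild type 5, with 6 lower against 17.9% of all genes.

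Ridge genes stood apart in both directions. Rspo2, a secreted amplifier of Wnt signals made by the ridge, read 96.1 to 169 in numbers 1 to 3 and 200, 312, 177 and 194 in wild type 4 and 5 and mutant 4 and 5. Sp8, a transcription factor the ridge needs, read 143 to 197 against 206 to 310, and Fgf9 188 to 242 against 264 to 433. The mean of Rspo2 was under the filter signal in numbers 1 to 3, and it passed through numbers 4 and 5. Wild type 5 was the highest array in all 3, and without it their differences were 0.51, 0.40 and 0.32. Fgf4, another ridge growth factor, stood apart as lower (-0.24), and Fgf8, the growth factor made all along the ridge, overlapped at 123 to 240 and 157 to 254. Of 11 measured genes 3 were higher and 1 lower, against 7.17% and 13.5% of all genes, and the median was 0.17. Leaving out wild type 5, 3 were higher and 4 lower, against 9.81% and 17.9%, and the median was 0.088.

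Signalling genes stood apart in part. In the hedgehog pathway, the transducer Smo read 936 to 1185 in numbers 1 to 3 and 728 to 805 in numbers 4 and 5. Gli2, a transcription factor at the end of the pathway (-0.32), Sufu, which holds Gli proteins back (-0.37), Cdon, a co-receptor (-0.41), and Hand2 also stood apart as lower, so the 5 of 15, against 13.5% of all genes, included an activator and an inhibitor. The signal Shh (84 to 343 and 142 to 412) and the readout genes Ptch1 and Gli1 overlapped. In the Wnt list, Dkk1, Sfrp1 (0.42) and Sp5 (0.19) stood apart as higher and 5 genes as lower, among them Sfrp2 (-0.47) and Nkd1 (-0.34), of 18, where 7.17% and 13.5% of all genes did so. The 5 lower became 8 without wild type 5, against 17.9%. Of 11 retinoic acid genes, Stra6, the receptor that takes up retinol (-0.53), and the receptor Rarg (-0.42) stood apart as lower, again against 13.5%. Leaving out wild type 5, 3 did so, against 17.9%.

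Most blood and vessel genes overlapped between the sides. Hbb-bh1, an embryonic beta-like globin of primitive red cells, read 4326 to 8917 (median 6237) in numbers 1 to 3 and 9861, 9991, 9132 and 11703 in wild type 4 and 5 and mutant 4 and 5. The sides came as close as 8917 and 9132, and all 3 of its probe sets stood apart. The other embryonic globins overlapped, with Hbb-y at 8793 to 11341 and 10439 to 12104 and Hba-x at 7211 to 11124 and 9138 to 11382. None of 14 other red cell genes stood apart, where 7.17% of all genes did so as higher and 13.5% as lower. Their summed signal was 4665 to 7275 and 6394 to 8057, and no adult globin passed the brightness filter. Kdr, the receptor for vascular endothelial growth factor on endothelium, read 330 to 364 against 489, 736, 494 and 530. Ramp2 (-0.44) and Egfl7 (-0.26), also endothelial, stood apart as lower. So 1 of the 18 endothelial markers was higher and 2 were lower, against the same 7.17% and 13.5%. The 18 had a median of -0.078 with summed signals of 4492 to 4855 and 4358 to 5504. Leaving out wild type 5, 2 of the 18 were higher and 5 lower, against 9.81% and 17.9% of all genes. Of 11 white blood cell markers, Coro1a alone stood apart, as lower (-0.22), against 13.5% of all genes.

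**Figure D5:**
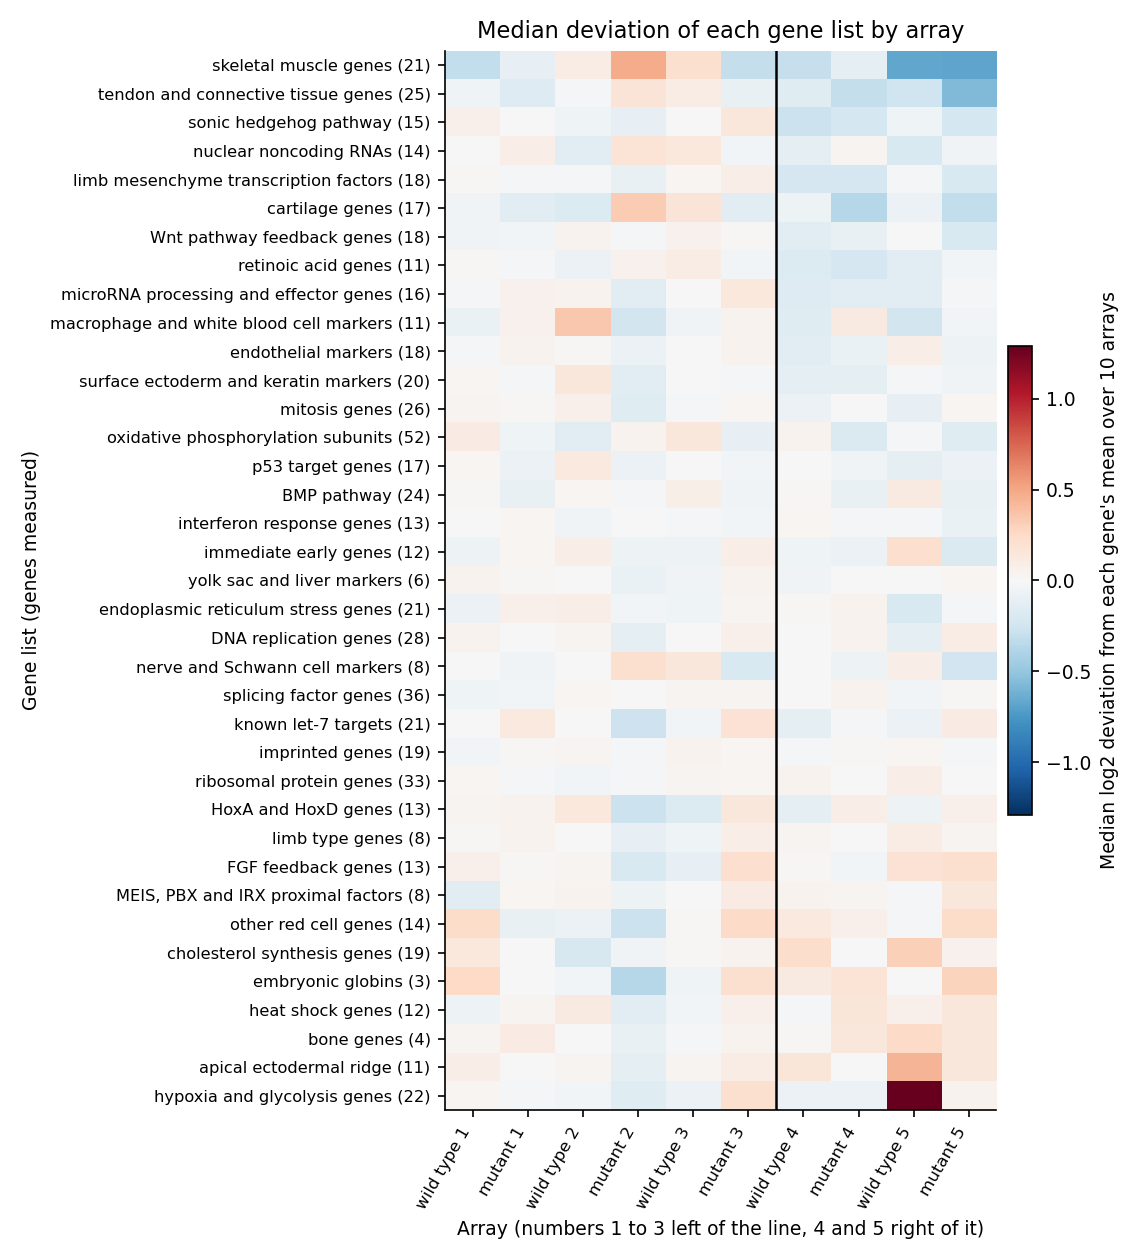
Median log2 deviation of each gene list (y axis, with the number of genes measured) on each array (x axis). Each gene is set against its mean over numbers 1 to 3, not over the 10 arrays as the colour scale's label reads. The vertical line divides numbers 1 to 3 from numbers 4 and 5. Muscle genes are lowest on both arrays numbered 5 and connective tissue genes are low on all 4 arrays on the right, while the 1.29 of hypoxia and glycolysis genes belongs to wild type 5.

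Among metabolic genes, the difference of those of low oxygen and glycolysis rested on 1 array. The median of 22 genes was 0.25 with all arrays and -0.016 without wild type 5, and -0.028 in mutant arrays. Bnip3, a mitochondrial protein induced in hypoxia, read 4333 on wild type 5 and 696 to 1147 on the other 3 arrays numbered 4 and 5, against 572 to 903 in numbers 1 to 3. Hexokinase 2 (Hk2) read 2642 on wild type 5 and 488 to 714 on those 3, and the glucose transporter Slc2a1 read 4984 and 1221 to 1596. Wild type 5 is also the array with the high 18S ribosomal RNA, and the part that this played was not tested.

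Among cholesterol synthesis genes more stood apart as higher than as lower. Cyp51, the lanosterol demethylase, read 608 to 898 (median 740) in numbers 1 to 3 and 1200, 1618, 1151 and 1120 in wild type 4 and 5 and mutant 4 and 5, and its second probe set gave 0.91. Msmo1 (0.60) and Sc5d (0.53), enzymes of later steps, and Insig1 (0.52), which holds back the pathway, also stood apart as higher. Without wild type 5 the differences were 0.66 in Cyp51, 0.50 in Msmo1, 0.49 in Sc5d and 0.49 in Insig1. Mvk, mevalonate kinase, stood apart as lower (-0.22), and Hmgcs1 and Sqle, which act before Cyp51, overlapped. Of 19 genes 4 were higher and 1 lower, against 7.17% and 13.5% of all genes. Without wild type 5 they were 4 and 2, against 9.81% and 17.9%. The median of the 19 was 0.10, and -0.006 in mutant arrays. Srebf1 was among the 15 genes with the most negative differences, whereas its relative Srebf2, the main regulator of sterol synthesis, overlapped (-0.21).

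Lists of general machinery stood apart in both directions and are read against 7.17% higher and 13.5% lower of all genes. Of 36 splicing genes 5 stood apart in each direction, with Hnrnpd (-0.63) and Snrnp70 (-0.56) lower beside U2af2, and Prpf4b (0.41) higher. The further probe set of Hnrnpd differed by -0.0033 and overlapped between the sides. The counts were 9 higher and 8 lower without wild type 5, against 9.81% and 17.9%. Of 52 subunits of oxidative phosphorylation 2 were higher and 6 lower, and without wild type 5 the lower were 10. Of 33 ribosomal protein genes, a list that does not hold Rpl27a, 4 were higher and 2 lower. Among them Rpl6 differed by 0.17, at 7966 to 8369 against 9036 to 9459. Of 26 mitosis genes 3 were higher and 2 lower, and of 28 DNA replication genes 3 were lower and 0 higher. Leaving out wild type 5, 6 replication genes were higher and 4 lower. Single genes stood out. The immediate early transcription factor Jund read 2042 to 2810 against 1086 to 1492. The chaperone Calr read 2282 to 2847 against 1335 to 1785, and the imprinted gene Nnat 5100 to 5947 against 3725 to 4076.

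Genes linked to microRNAs were looked at because Dicer is the subject of the study. Of 16 measured genes that make or use microRNAs, Tarbp2, the RNA-binding partner of Dicer, read 335 to 410 in numbers 1 to 3 and 248 to 282 in numbers 4 and 5. Xpo5, which exports the precursors, was lower by little (-0.23), and Prkra, another Dicer partner, was higher (0.14). Dgcr8, which binds the primary transcripts that Drosha cuts, read 270 on wild type 5 and 560 to 595 on the other 3, so its -0.50 was -0.23 without that array. Of the 16, 1 thus stood apart as higher and 3 as lower, against 7.17% and 13.5% of all genes. Of 21 known let-7 targets, Cdc34 (-0.55), Cdc25a (-0.41) and Ccnd2 (-0.35) stood apart as lower, against 13.5% of all genes. The median was 0.013, and it was negative in wild type arrays alone (-0.11) and in mutant arrays alone (-0.027).

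Control probe sets took no part in choosing the sides and could be tested. The 4 measures were compared by a two-sided exact permutation test over the 10 arrays, whose smallest possible p is 0.00952, with Benjamini-Hochberg adjustment over the 4. The ratio of the 3' to the 5' probe set of beta-actin, a usual measure of RNA length, was 1.19 to 1.30 in numbers 1 to 3 and 1.30 to 1.51 in numbers 4 and 5 (log2 difference 0.12, exact p = 0.019, adjusted p = 0.0381). The same ratio for Gapdh was 0.919 to 0.969 and 0.922 to 1.03 (exact p = 0.457, adjusted p = 0.610). The hybridisation spikes had means of 1215 and 1222 (exact p = 0.952). The poly-A spikes were near background, with means of 54.2 and 58.5 that did not overlap between the sides (log2 difference 0.11, exact p = 0.00952, adjusted p = 0.0381). Without wild type 5 the beta-actin difference was 0.078 and that of the poly-A spikes 0.10, and both adjusted p-values were 0.0952 by the exact test. The poly-A spikes still did not overlap there, so their unadjusted exact p of 0.0238 was the smallest possible without that array. The part that these shifts played in the gene differences was not tested.

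Whether the Dicer difference itself depended on the set of numbers was tested with limma over 22519 probe sets. This question is separate from the one that chose the sides. No probe set passed an adjusted p of 0.05 for the interaction of genotype and set (0.0%, 558 with unadjusted p below 0.05), for mutant against wild type within numbers 1 to 3 (0.0%, 346) or within numbers 4 and 5 (0.0%, 1626). Dicer1 was lower in mutants by 1.32 ± 0.34 within numbers 4 and 5 and by 0.35 ± 0.28 within numbers 1 to 3 by its dimmer probe set (log2, standard error). The difference between these was -0.98 ± 0.44, with a limma adjusted p of 1.00. The brighter probe set gave -0.65 ± 0.22 within numbers 4 and 5, -0.17 ± 0.18 within numbers 1 to 3 and -0.48 ± 0.29 between these. On the dimmer one wild type 5 read 706 and wild type 4 read 390, so wild type 5 adds to its value within numbers 4 and 5. The arrays numbered 2, whose Dicer1 signals go against their labels, are part of both values for numbers 1 to 3.

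Without both arrays numbered 2, limma called 119 probe sets between genotypes within numbers 1 to 3 (0.528%), 76 of them higher in mutants, and 81 within numbers 4 and 5 (0.36%), 69 of them higher. The interaction still had none (645 with unadjusted p below 0.05). Dropping wild type 5 as well leaves wild type 4 as the lone wild type of its side. In that fit more probe sets were called within both sets of numbers, and again none for the interaction. Most of those called within numbers 1 to 3 were then lower in mutants, so the direction there depends on the arrays kept. Of the named genes with the smallest interaction p in the full set, Dbp, a clock-controlled transcription factor, read 182 to 191 on the wild types and 192 to 211 on the mutants of numbers 1 to 3. Wild type 4 and 5 read 194 and 228, above the 149 and 167 of mutant 4 and 5 (limma adjusted p = 1.00). Col8a1, Col23a1 and Atp10d had interactions of -0.78, -0.79 and -0.66 with the same adjusted p. Leaving out wild type 4 alone raised the interaction count to 133 and the count within numbers 4 and 5 to 347, and that fit leaves wild type 5 as the lone wild type of its side.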

How the data were processed

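Per the labels' protocols, limb bud RNA from a column kit was labelled with biotin and each sample hybridised to its own Affymetrix array. The deposited values are linear intensities, and the submitters' processing notes name GCOS 1.3. How probes were summarized and scaled, and whether probe sets were detected, is not stated in them, so a dim probe set's distance from background is unknown. The authors' intensity values had array medians within 145.8 to 152.8 and were not normalized again.

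Values under 1 were raised to 1 before log2. After setting aside 64 control probe sets, the 22519 of 45037 with a mean log2 at or above the median (a signal of 151) were fitted. Platform annotation named 34945 probe sets with 1 symbol, and the brightest of a gene was used, with _x_at and _s_at sets used when a gene has no other. Samples were grouped by their titles. limma 3.58.1 in R 4.3.3 fitted genotype and number set together, with an intensity trend and Benjamini-Hochberg adjustment at 0.05, and was tested on simulated data. Named genes were the 15 with the largest non-overlapping difference each way, up to 4 of each of 39 gene lists (2 where none was apart), and those with the smallest limma p. Other members were added after their values were seen. The members, lists and rules were chosen with earlier results of these data known. The labels do not say that samples came from separate litters, so the p-values speak for the spread of these samples, which may be technical. The number of arrays limits the precision. Alternatives were quantile normalization, centring, offsets of 16 and 64, other filters and fits, and left-out arrays.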

Additional observations from a re-analysis of the deposited data

Results flagged for a closer look

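Within each side, 258 sets of values were examined for an array standing far from the others by Dixon's criterion, and 21 were marked, where chance marks about 1 in 20. Wild type 5 accounts for 14 of them. It was high among numbers 4 and 5 in Gdap10 (1151), Nampt (1528), Pdk1 (1801), Kdm7a (1240), Cyp51 (1618), Kdr (736), Rspo2 (312), Bmpr1a (1799), Cdkn1a (298) and Prpf4b (1863), and low in Dgcr8 (270). It was also high in the 18S ribosomal RNA probe sets, at 2270 near the 3' end, 1294 in the middle and 2008 near the 5' end. The other marks were Kcnab2 on wild type 4 (361), and, among numbers 1 to 3, Rarg on wild type 3 (906), Kif11 (852) and Mcm5 (1732) on mutant 2, Tyms on wild type 1 (208), Hspe1 on wild type 2 (1680) and the 5' probe set of 18S ribosomal RNA on mutant 1 (1874). The groups hold 4 and 6 arrays, and the part of the 18S values in the gene values was not tested.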

How the results depend on the processing

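The count of probe sets apart and at least 1.5-fold different was 680, with 35.7% higher in numbers 4 and 5. It was 645 after quantile normalization, 700 after centring and 552 among brighter probe sets, and from 683 to 794 with single arrays left out. It moved to 313 with an offset of 64 (24.9% higher), to 50 at 2-fold, to 1073 in wild type arrays only and to 1132 in mutant arrays only (50.7% higher). With the replicate block, as the mean of each number, it was 873. The cause of these moves was not tested, beyond the stricter fold and the smaller number of arrays to keep apart.

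The counts called by limma were 0 with the replicate block for the interaction and for genotype within either set. Same-numbered arrays matched in Xist and Y-linked signals in all 5 numbers. Their deviations from the mean of their genotype and side correlated at 0.061, -0.378, -0.324, 0.201 and 0.201 for numbers 1 to 5. With 2 arrays of a genotype on their side, the deviations of numbers 4 and 5 mirror each other. Their 2 equal values are thus 1 measurement. The deviations of numbers 1 to 3 are taken from means that include the arrays numbered 2, whose Dicer1 signals go against their labels. These values therefore cannot decide whether same-numbered arrays are pairs. Not every value was above 0.1, and the arrays were not treated as pairs in the main fit. Without both arrays numbered 2 the genotype counts were 119 within numbers 1 to 3 and 81 within numbers 4 and 5, and 1439 and 215 also without wild type 5 (added after seeing the data). With single arrays left out, the counts ranged from 0 to 133 for the interaction, 0 to 1 within numbers 1 to 3 and 0 to 347 within numbers 4 and 5. Without wild type 4, 133 and 347 were called. Without wild type 3 the interaction and numbers 1 to 3 had 1 each, and without mutant 5 the interaction and numbers 4 and 5 had 1 each. A lone array of a group was assumed to vary like the others.

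The beta-actin ratio and poly-A spike differences no longer passed without both arrays numbered 2 (0.11 and 0.10, adjusted exact p = 0.114). Nor did they also without wild type 5 (0.061 and 0.096, adjusted exact p = 0.229) or with the replicate block (0.12 and 0.11, adjusted exact p = 0.4). The poly-A spikes did not overlap in any of these. Their unadjusted exact p-values (0.0286, 0.0571 and 0.2) were the smallest that the fewer values allow. With single arrays left out the beta-actin and poly-A differences ranged from 0.078 to 0.15 and from 0.095 to 0.13. Their adjusted exact p ranged from 0.0317 to 0.0952, and both passed without wild type 3 and without mutant 5. The hybridisation spikes ranged from -0.022 to 0.039 and the Gapdh ratio from -0.0014 to 0.052. The spikes changed sign when centred (-0.0086) and without wild type 3 (-0.013), mutant 3 (-0.022) or wild type 5 (-0.0099), and Gapdh without wild type 5 (-0.0014) and also without both arrays numbered 2 (-0.022), none of them past the threshold. Of the values of named genes under the alternatives, 2381 moved by less than the spread between arrays and 59 by more, and of list medians 710 and 30.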
